A study of Mus musculus with 2 samples.

Results

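The genes described here encode the receptors for monoamines and acetylcholine: 14 serotonin receptors (Htr), 5 dopamine receptors (Drd), 5 muscarinic (Chrm) and 16 nicotinic (Chrn) acetylcholine receptor genes, and 9 adrenergic receptors (Adr), which answer to noradrenaline and adrenaline. They were taken by symbol from the protein-coding genes of GENCODE M21, which gave 49 of 21911 genes. No measured value entered this rule, but the genes were chosen with earlier results of these data known. Chromatin accessibility had been measured by DNase-seq, an assay in which the nuclease DNase I cuts DNA that is not wrapped tightly by nucleosomes and the cut ends are sequenced. The tissue was hippocampus of male B6CASTF1/J mice, an F1 hybrid of C57BL/6J and CAST/EiJ, at 14 days of age, with no treatment named. It formed 1 group of 2 biological replicates. The labels call the tissue a layer of the hippocampus but do not name the layer, and they mention 3 males without saying which animals went into which replicate. Both replicates carry 1 donor identifier, so the spread between them may be partly technical. With no other group there is no comparison between conditions, and every value below is a description.

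Noradrenaline, serotonin, dopamine and acetylcholine reach the hippocampus mostly from axons whose cell bodies lie elsewhere: the locus coeruleus, the raphe nuclei, the ventral midbrain and the medial septum. Their receptors lie on the neurons, glia and vessels of the hippocampus itself and on the incoming axon endings, whose nuclei are not in the tissue. Most are G protein-coupled receptors. Gs-coupled members raise cyclic AMP, Gi-coupled members lower it, and Gq-coupled members release calcium through phospholipase C. The nicotinic receptors and the serotonin receptor built from Htr3a and Htr3b are instead ion channels made of 5 subunits.

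Replicate 1 had 115072 peaks in the longer of its deposited lists and replicate 2 had 95711. The authors' value of a peak is a signal height with no stated unit. It moved in equal steps within each library, of 0.00707 in replicate 1 and 0.00815 in replicate 2, and 100% of peaks lay within 0.05 of a step from a whole number. The highest promoter peaks of the receptor genes stood between 47 and 299 steps in replicate 1 and between 52 and 344 in replicate 2. The sources used here do not say whether a step is 1 read, so the depth is unknown. A promoter here spans 1000 bp on each side of every transcription start site annotated for a gene, and a gene has a promoter peak where a peak overlaps that window by at least 1 bp. Among genes that mark cell types, both replicates had a promoter peak at 6 of 6 excitatory neuron genes, 3 of 6 interneuron, 4 of 5 astrocyte, 3 of 5 oligodendrocyte lineage, 2 of 5 microglia, 2 of 5 vascular and 2 of 5 choroid plexus genes. It was also at 6 of 6 genes of striatal projection neurons, which the tissue label does not name, and over all protein-coding genes the share was 64.4%. In tissue of mixed cells, fewer cells of a type and less accessible chromatin per cell cannot be told apart.

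A few of the peaks on which the results turn are shown here as the C57BL/6J reference sequence of mm10 (GRCm38). They run 5′ to 3′ along the strand of the gene, although each animal also carries a CAST/EiJ genome. Capitals mark bases covered by a footprint in both replicates, a footprint being a short stretch that the authors called as protected from cutting inside open chromatin. The first 5 are the highest promoter peak of each receptor group, cut to the part outside annotated untranslated regions. For Chrm1 the highest peak lies wholly within the 5′ untranslated exon, and its next promoter peak is shown.
Adra2b, chr2:127362521-127362720, plus strand: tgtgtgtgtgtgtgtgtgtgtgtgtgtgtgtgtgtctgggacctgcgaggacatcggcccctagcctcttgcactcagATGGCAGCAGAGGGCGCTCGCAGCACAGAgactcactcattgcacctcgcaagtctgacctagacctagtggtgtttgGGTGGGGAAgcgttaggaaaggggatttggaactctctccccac
Drd1, chr13:54055706-54055840, minus strand: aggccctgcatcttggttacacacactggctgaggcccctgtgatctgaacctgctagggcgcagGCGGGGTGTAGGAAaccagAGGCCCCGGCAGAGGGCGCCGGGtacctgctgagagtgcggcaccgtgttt
Chrnb1, chr11:69795321-69795500, minus strand: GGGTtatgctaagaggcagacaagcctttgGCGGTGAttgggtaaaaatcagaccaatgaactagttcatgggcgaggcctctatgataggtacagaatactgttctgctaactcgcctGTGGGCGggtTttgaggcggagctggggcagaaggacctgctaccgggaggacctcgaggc
Chrm1, chr19:8663405-8663704, plus strand: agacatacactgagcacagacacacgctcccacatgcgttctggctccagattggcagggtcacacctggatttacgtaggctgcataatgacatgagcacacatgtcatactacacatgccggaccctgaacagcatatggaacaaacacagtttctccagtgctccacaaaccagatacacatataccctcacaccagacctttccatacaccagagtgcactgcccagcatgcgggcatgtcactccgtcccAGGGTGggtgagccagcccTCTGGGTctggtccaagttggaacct
Htr1a, chr13:105442701-105442880, plus strand: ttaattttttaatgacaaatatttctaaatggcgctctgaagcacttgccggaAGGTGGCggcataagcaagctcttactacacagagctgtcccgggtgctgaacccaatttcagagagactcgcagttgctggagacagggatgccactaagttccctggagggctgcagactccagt
Adra2b and Drd1 each carry a long protected run that holds the letters AGAGGGC, and 38 of 200 and 37 of 135 printed bases lie under footprints. In Htr1a 7 of 180 bases do, and in Chrm1 13 of 300.

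The next 3 are the highest peaks outside promoters that lie inside a receptor gene. Each was found in an intron, in both replicates, and no printed base is exonic.
Chrna1, chr2:73572571-73572870, minus strand: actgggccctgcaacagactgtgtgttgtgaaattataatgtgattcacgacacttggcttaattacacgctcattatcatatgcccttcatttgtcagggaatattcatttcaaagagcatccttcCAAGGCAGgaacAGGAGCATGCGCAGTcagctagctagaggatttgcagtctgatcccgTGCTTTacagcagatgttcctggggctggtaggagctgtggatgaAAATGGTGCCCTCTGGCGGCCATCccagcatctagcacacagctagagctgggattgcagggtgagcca
Htr2a, chr14:74643441-74643620, plus strand: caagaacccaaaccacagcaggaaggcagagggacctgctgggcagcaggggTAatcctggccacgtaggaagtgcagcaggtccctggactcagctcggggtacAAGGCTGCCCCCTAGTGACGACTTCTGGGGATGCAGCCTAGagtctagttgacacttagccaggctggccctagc
Chrna9, chr5:65955881-65956100, plus strand: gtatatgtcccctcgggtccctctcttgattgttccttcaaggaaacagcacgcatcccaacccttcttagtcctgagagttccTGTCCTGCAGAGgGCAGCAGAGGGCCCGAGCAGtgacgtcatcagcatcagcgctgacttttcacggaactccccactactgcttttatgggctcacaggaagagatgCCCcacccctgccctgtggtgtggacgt
A protected run in each holds the letters AGNGGGC, which include the core of the binding motif of CTCF, a protein that shapes chromatin loops and domain borders. They are read on the strand printed in Chrna9 and on the other strand in Chrna1 and Htr2a.

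The last pair are 30-base stretches around the only matches to the letters of RE1 among receptor peaks. RE1 is the element bound by REST, a repressor of neuronal genes in cells that are not neurons.
Chrnb2, chr3:89764451-89764480, minus strand: cgCGGCTTCAgcaccacggacagCGCTCCG
Htr1a, chr13:105442782-105442811, plus strand: cacagagctgtcccgggtgctgaacccaat
In Chrnb2 its parts, TTCAGCACC and GGACAG, stand 2 bases apart on the gene's strand, in the 5′ untranslated region of its first exon, with 4 of the 17 bases under a footprint in both replicates. In Htr1a they lie 2 bases apart on the opposite strand, upstream of the start site, and none of the 17 bases is covered.

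A promoter peak was present in both replicates at 33 of the 49 receptor genes, or 67.3% (exact 95% binomial interval 52.5 to 80.1, counting error only), close to the 64.4% of all protein-coding genes. Drd2 and Drd5 had one in 1 replicate only, a state found in 3.55% of all genes, and 14 receptor genes had none in either. Their heights, in contrast, were low beside those of all genes. The median value of their highest promoter peak was 1.02 over the 33 genes with a peak in both replicates, within a range of 0.419 to 2.43, against 2.86 over the 14100 protein-coding genes with one. Not 1 of the 33 reached that median: the highest, Adra2b, stood above 42% of the 14100 genes. Values were higher in replicate 2 at 28 of the 33, with a median ratio of replicate 2 to replicate 1 of 1.26, near the 1.25 of all genes. The values of each replicate are therefore given below, while ranges and means take in both replicates and so include this shift.

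**Figure D1:**
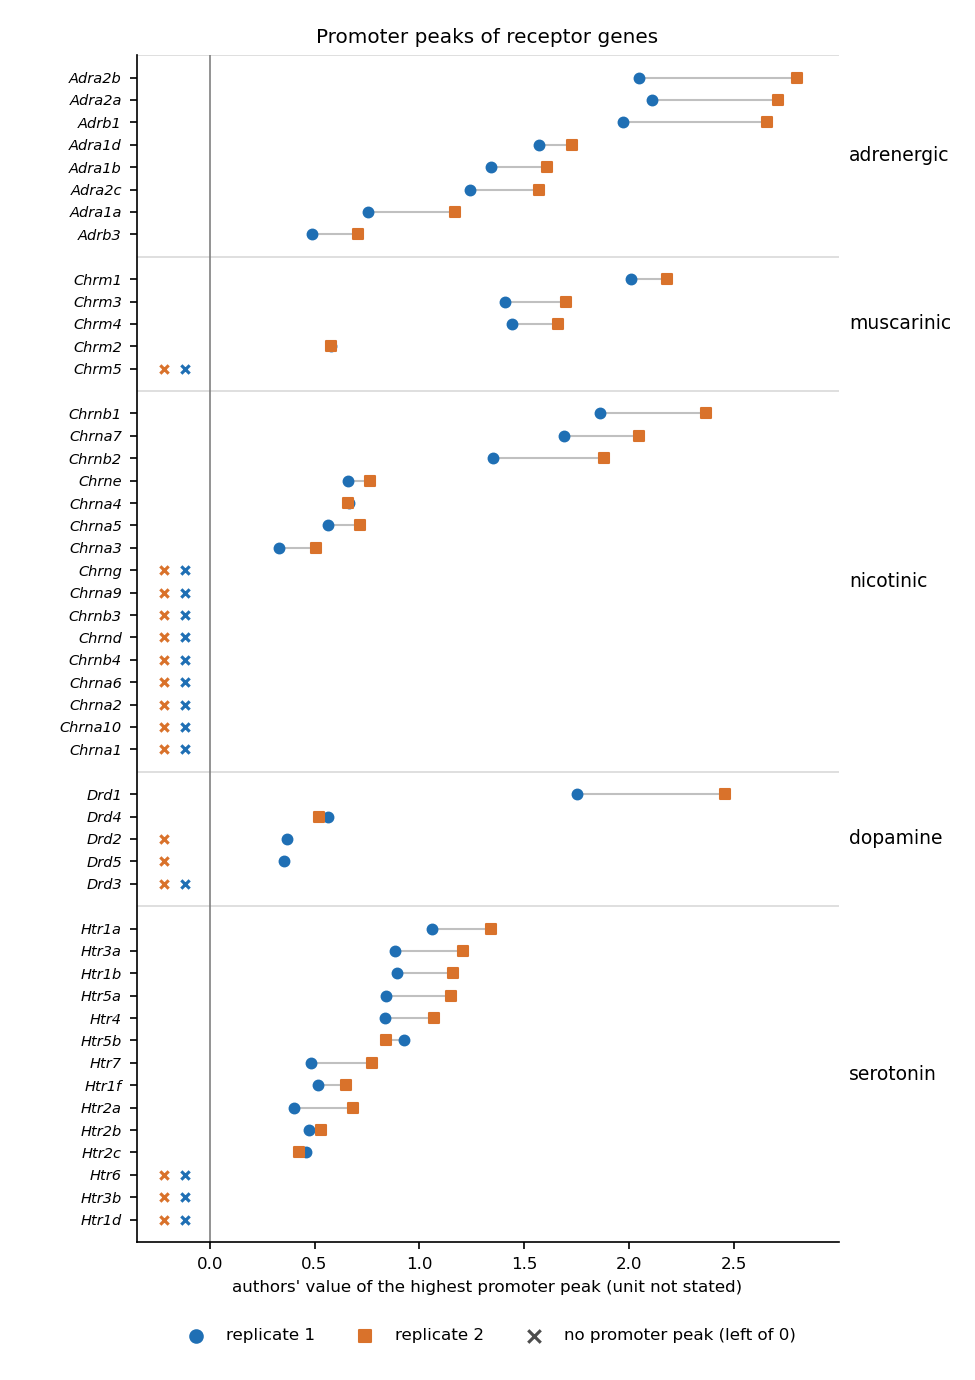
Authors' value of the highest promoter peak of the receptor genes reported by name (horizontal axis, no stated unit) in replicate 1 (circles) and replicate 2 (squares), grouped by transmitter, with crosses left of 0 for a replicate without a promoter peak. Every adrenergic gene drawn has a peak in both replicates, and 9 of 16 nicotinic genes have none.

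Receptor promoters were fewer in the shorter of the authors' peak lists. There 23 of 49 receptors kept a promoter peak in both replicates, against 59.3% of all genes. The 10 that had one only in the longer lists were Htr1f, Htr2a, Htr2c, Htr5b, Drd4, Chrm4, Chrna3, Chrna4, Chrna5 and Chrne. Chrm4 had 1.44 in replicate 1 and 1.66 in replicate 2, while Htr2b, with 0.474 and 0.530, was kept. The part of height in this loss was not tested. A median over genes with a peak describes those genes and not the 49.

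The adrenergic receptors had a promoter peak in both replicates at 9 of 9 genes. Adra2a, a Gi-coupled receptor that is also the autoreceptor of noradrenergic neurons, and its relative Adra2b stood highest. Adra2b reached 2.05 in replicate 1 and 2.80 in replicate 2 (2.43 ± 0.533, SD, n = 2), at chr2:127362521-127362720, the stretch printed above, centred 588 bp upstream of the start site. Adra2a reached 2.11 and 2.71 at chr19:54044501-54045120. The order of these 2 genes differed between the replicates. The third of that family, Adra2c, had 1.24 and 1.57 at chr5:35278661-35278940, with its peak centre 481 bp inside the gene.

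Among the Gs-coupled beta receptors, Adrb1, the main beta receptor of forebrain neurons, had 1.97 and 2.66 at chr19:56721381-56722020. Adrb3, best known from fat, was the lowest adrenergic gene by mean, at 0.488 and 0.709. Its peak, at chr8:27227341-27227620, was centred 1014 bp inside the gene from the nearest start site, and the start of an antisense gene, Gm45470, lies in the same window. The values of Adrb1 and Adrb3 did not overlap.

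The Gq-coupled alpha-1 receptors ran in 1 order in both replicates. Adra1d had 1.57 and 1.73 at chr2:131562701-131562940, Adra1b 1.34 and 1.61 at chr11:43836441-43836680, and Adra1a 0.757 and 1.17 at chr14:66636121-66636679. Adra1d was only slightly above Adra1b, with ranges that overlap, and Adra1a lay below both throughout. The promoter window of Adra1d also holds the start of an antisense gene, Gm14285. The Adra1b peak is not at the end of the gene model but at an internal start site, 228 bp upstream of it. Adra1a has 3 promoter peaks in each replicate, spread over 6 annotated start sites.

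Muscarinic receptors had a promoter peak in 4 of 5 genes. Chrm1, the principal muscarinic receptor of hippocampal pyramidal cells, was the highest with 2.01 and 2.18 at chr19:8663961-8664400, in a CpG-poor promoter whose observed over expected CpG ratio was 0.19. Chrm3, also Gq-coupled, had 1.41 and 1.70 at chr13:10360861-10361160. Chrm4, a Gi-coupled receptor, had nearly the same heights, 1.44 and 1.66, at chr2:91927957-91928140, but its peak lies 799 bp inside a gene only 1.44 kb long and left the shorter lists. The ranges of Chrm3 and Chrm4 overlap almost wholly.

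Chrm2, the Gi-coupled receptor of interneurons and of cholinergic endings, was much lower at 0.580 and 0.579, at chr6:36387781-36388100. The promoter window also holds the start of a noncoding gene, 9330158H04Rik. Chrm5, a Gq-coupled receptor best known from midbrain dopamine neurons, had no promoter peak in either replicate and no shared peak in the gene or 10 kb either side.

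Dopamine receptors had a promoter peak in both replicates at 2 of 5 genes. Drd1, the main Gs-coupled dopamine receptor of the forebrain, had 1.75 and 2.46 at chr13:54055621-54055840, across its start site. Its peak was the highest of the group in both replicates, above 35.9% of all genes with a promoter peak. Drd4, a Gi-coupled receptor, followed far below at 0.566 and 0.522, at chr7:141291941-141292141.

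Drd2 and Drd5 had low peaks in replicate 1 alone, of 0.368 at chr9:49341147-49341223 and 0.354 at chr5:38319221-38319316. These lie near the lowest values at which receptor promoters were called at all, since Chrna3 had 0.332 in that replicate. Drd3, a Gi-coupled receptor, had no promoter peak. Counting replicate 1 alone would give 4 of 5 dopamine receptors and replicate 2 alone 2 of 5, so the count for this group rests on which library is read. The 6 striatal projection neuron genes examined beside them, which include Penk and Adora2a, all had promoter peaks in both replicates. A part of striatal tissue in the values of Drd1 was not tested.

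Serotonin receptors had promoter peaks at 11 of 14 genes, but low ones: the highest mean of the group, 1.20 in Htr1a, was under those of 7 of the 9 adrenergic genes. Htr1a, a Gi-coupled receptor of pyramidal and granule cells and the autoreceptor of raphe neurons, had 1.06 and 1.34 at chr13:105442701-105442880. This peak is centred 849 bp upstream of the start site, and the promoter held 4 peaks in replicate 1 and 5 in replicate 2. Htr1b, another Gi-coupled receptor, had 0.891 and 1.16 at chr9:81633341-81633940, with an antisense gene starting in the same window. Htr1f had 0.516 and 0.652 at chr16:65105621-65105760, and Htr1d had no promoter peak.

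Htr5a and Htr5b, a pair of Gi-coupled receptors of which Htr5b has lost its function in humans, were close in height. Htr5a had 0.841 and 1.15 at chr5:27841721-27842280, and Htr5b 0.926 and 0.840 at chr1:121528381-121528660. Htr5b is one of 5 receptor genes that were not higher in replicate 2, with Htr2c, Drd4, Chrm2 and Chrna4. The order of the pair turned between replicates.

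The Gq-coupled Htr2 family was low throughout. Htr2a, the receptor through which psychedelic drugs act in cortex, had 0.403 and 0.685 at chr14:74641181-74641280. Htr2b had 0.474 and 0.530 at chr1:86111861-86112060, where the start of Psmd1, a proteasome gene, lies in the same window, so that peak cannot be given to Htr2b alone. Htr2c, abundant in choroid plexus and in the ventral hippocampus, had 0.460 and 0.424 at chrX:146962901-146963160 and was the lowest serotonin receptor by mean. The values of Htr2b and Htr2c both lie within the range of Htr2a, which was below both in replicate 1 and above both in replicate 2. Of 5 choroid plexus genes, Kl and Otx2 had a peak in both replicates, Ttr in replicate 2 only, and Folr1 and Kcnj13 in neither, and a part of choroid plexus in the value of Htr2c was not tested. As males carry 1 X chromosome, the value of Htr2c comes from 1 copy of the gene per cell and those of autosomal genes from 2.

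Of the Gs-coupled serotonin receptors, Htr4 had 0.834 and 1.07 at chr18:62324201-62324320, and Htr7 had 0.481 and 0.775 at chr19:36057401-36057540. Htr6 had no promoter peak in either replicate. The ranges of Htr4 and Htr7 did not overlap. For the channel subunits, Htr3a, the subunit found in a class of interneurons, had 0.884 and 1.21 at chr9:48910881-48911240 over its start site, and its partner Htr3b had none.

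Nicotinic genes were divided: 7 of 16 had a promoter peak in both replicates and 9 in neither. Among the 7, 3 stood well above the rest. Chrnb1 had 1.86 and 2.37 at chr11:69795321-69795500, although it encodes a subunit of the receptor of the neuromuscular junction. Chrna7, which forms the homomeric receptor of hippocampal interneurons and pyramidal cells, had 1.69 and 2.05 at chr7:63212461-63212740. Chrnb2, the main beta subunit of the high-affinity nicotine receptor of brain, had 1.35 and 1.88 at chr3:89764341-89764680. The ranges of these 3 overlap in part, and their order was the same in both replicates.

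The other 4 lay between 0.332 and 0.766. Chrna4, the usual partner of Chrnb2, had 0.665 and 0.660 at chr2:181038881-181039398, at an internal start site of the gene. Chrne, the adult muscle subunit, had 0.658 and 0.766 at chr11:70615380-70615620, in a window shared with the start of the coding gene 4930544D05Rik. Chrna5 had 0.566 and 0.717 at chr9:54981275-54981440, and Chrna3 0.332 and 0.505 at chr9:55026421-55026517. Chrna3 was the lowest receptor promoter by mean, 0.419 ± 0.122 (SD, n = 2), though a promoter of 2500 bp either side takes in a higher peak and gives 1.46. These 4 overlap in range apart from Chrna3, which lay below the rest. Chrna3, Chrna5 and Chrnb4 are neighbours on chromosome 9 and form a known gene cluster, and Chrnb4 had no promoter peak.

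The 9 nicotinic genes without one were Chrna1, Chrnd and Chrng, which encode muscle subunits, Chrna9 and Chrna10, the subunits of cochlear hair cells, Chrna6 and Chrnb3, a pair expressed in midbrain dopamine neurons, and Chrna2 and Chrnb4. The muscle subunits were thus 2 of 5 and the other nicotinic genes 5 of 11. Of 5 skeletal muscle genes examined beside them, 1, Ckm, had a promoter peak in both replicates, and Acta1, Myog, Myod1 and Tnnt3 had none in either.

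By coupling, a promoter peak in both replicates was found at 6 of 8 Gs-coupled, 11 of 14 Gi-coupled and 8 of 9 Gq-coupled receptors, and at 8 of 18 channel subunits. These classes are small, and the exact 95% interval of the channel share, 21.5 to 69.2%, overlaps those of the others. In the shorter peak lists the channel count was 4 of 18 and the Gi-coupled count 7 of 14.

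For the 14 receptor genes without a promoter peak, the authors' lists of stretches with a raised cut rate (false discovery rate up to 0.05) were also read. Not 1 of the 14 had a listed stretch in its promoter window in both replicates, a state found in 0.498% of all 7033 genes without a promoter peak. Htr6 had 36 listed bases in replicate 2 only. As this state is rare in all such genes, its absence from the 14 says little about the receptors. Signal below the listing limit was not detectable.

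Promoter CpG content divided the receptors as it divided all genes, with exceptions in both directions. The ratio of observed to expected CpG in the 500 bp either side of the start site had a median of 0.511 over the 33 genes with a peak in both replicates and 0.231 over the 14 with none, beside 0.708 and 0.171 over all genes in those states. The start site read for this ratio was the 5′ end of the gene model, while a promoter peak may lie at any annotated start site. Receptor promoters as a group were poorer in CpG than all promoters, with medians of 0.415 and 0.552. Below a ratio of 0.25, 6 of 15 receptors had a promoter peak in both replicates, or 40%, against 16.4% of all genes. These 6 were Chrm1, Chrm4, Chrna4, Chrne, Htr2b and Htr3a, and for Chrm1, Chrne and Htr2b the start of another gene lies in the window. The highest peaks of Chrna4 and Chrne lie nearest to other start sites, and that of Chrm4 is centred 799 bp inside the gene. These peaks fall outside the bases measured, so for Chrna4, Chrne and Chrm4 the ratio does not describe the open site.

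Between ratios of 0.25 and 0.5 the counts were 10 of 14 receptors and 52.8% of all genes. Among those 10, the highest peaks of Adra1b and Adrb3 also lie nearest to other start sites, outside the bases measured. That of Htr1a, centred 849 bp upstream of its start site, lies outside them too. From 0.5 to 0.75 the counts were 13 of 14 and 90.2%, with Drd5 as the exception. In this range the highest peak of Adra1a lies outside the bases measured. At 0.75 or more, where 97.2% of all genes had a peak in both replicates, 4 of 6 receptors did. The pair without were Drd2, with a ratio of 0.774, and Htr6, with 0.755. Drd2, Drd5 and Htr6 were the only receptors above a ratio of 0.5 that lacked a promoter peak in both replicates. The others in the top range were Adra1d, Adrb1, Chrna7 and Htr7, whose mean values ran from 0.628 in Htr7, the gene with the highest ratio, 0.925, to 2.32 in Adrb1.

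**Figure D2:**
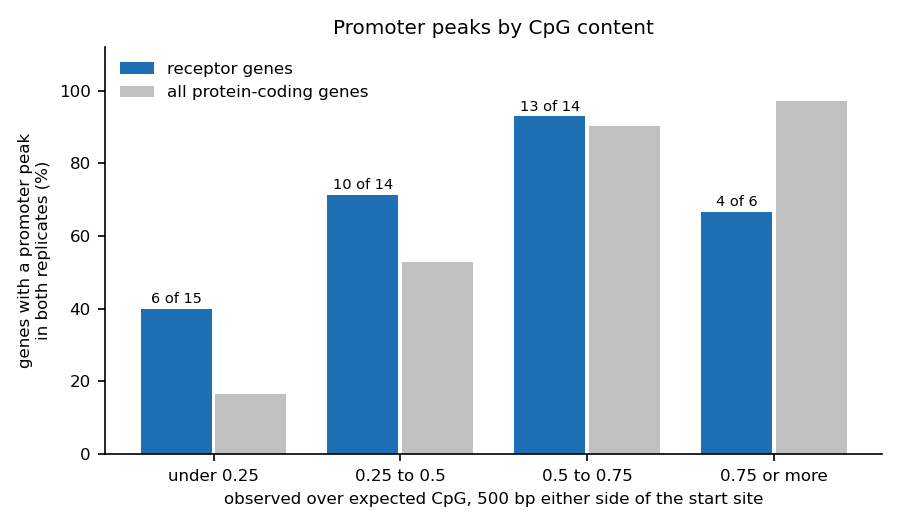
Share of genes whose promoter had a peak in both replicates (vertical axis, percent) in 4 ranges of observed over expected CpG (horizontal axis), for receptor genes (blue, counts above the bars) and all protein-coding genes (grey). Receptors stand at 40% against 16.4% in the poorest range and at 66.7% against 97.2% in the richest. The ratio is that at the 5′ end of the gene model, and a peak may lie at another start site.

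Outside promoters, peaks of both replicates that overlapped by at least 1 bp were counted in each gene and the 10 kb either side. There were 89 different such peaks and 90 pairs of peak and gene, as 1 peak serves both Chrna3 and Chrnb4. At least 1 peak was found at 32 of 49 receptors, or 65.3%, against 55.3% of all genes, and the median number was 2 against 1. The median falls to 1, as for all genes, when overlapping peaks of a list are merged or when peaks must share 50% of the shorter one. In the shorter lists the shares with a peak were 42.9% and 40.1%, and in the gene body alone 46.9% and 34.9%. Within 10 classes of gene length, 22 receptors were above the median of all genes of like length, 15 at it and 12 below. That is 44.9% above, against 35.4% of all genes. Of the 90, 42 lay in introns, 13 over exons, 20 upstream and 15 downstream, and 10 were inside another protein-coding gene.

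Missing promoter peaks did not go with missing peaks around the gene. Of the 14 receptors without a promoter peak, 9 had a shared peak outside promoters, or 64.3%, against 33.3% of all genes without one. The genes differ in length, with medians of 17.5 kb for the 14 and 7.67 kb for all 7033. Among receptors with a promoter peak in both replicates it was 23 of 33, or 69.7%, against 66% of such genes. The 9 were Chrna1, Chrna9, Chrnb3, Chrnb4, Chrnd, Drd3, Htr1d, Htr3b and Htr6. Drd2 and Drd5 had no shared peak outside promoters.

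**Figure D3:**
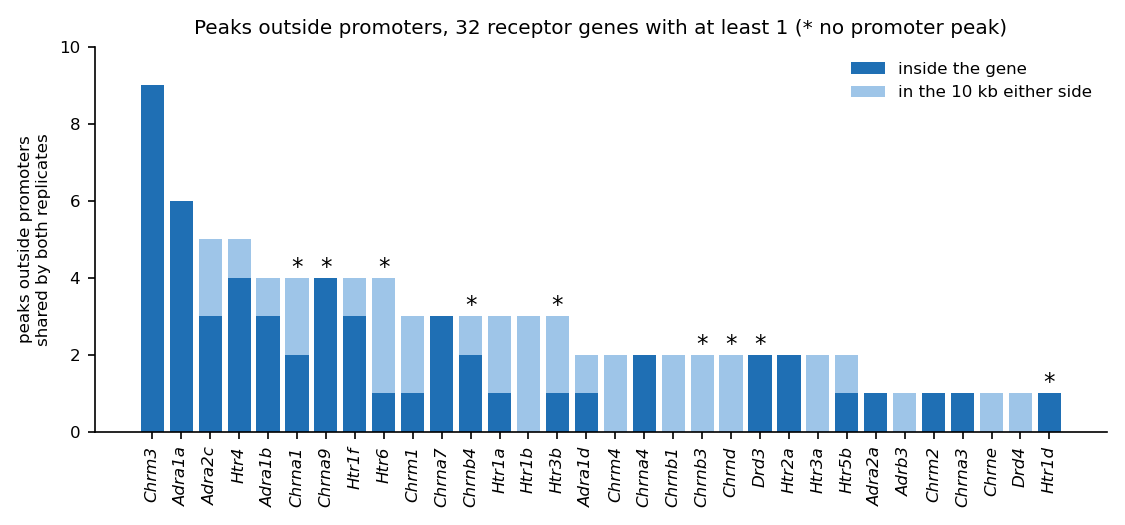
Number of peaks outside promoters shared by both replicates (vertical axis) for the 32 receptor genes with at least 1, inside the gene (dark) and in the 10 kb either side (light), with an asterisk over genes without a promoter peak. Chrm3 has 9, all inside the gene, and the 9 genes with an asterisk have between 1 and 4.

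Chrm3 had the most, with 9 peaks spread over the introns of a gene 485 kb long. The highest, at chr13:9882521-9882720, had 1.39 in replicate 1 and 1.28 in replicate 2, and the lowest, at chr13:10244295-10244420, had 0.283 and 0.399. The median number in the longest of 10 length classes of all genes was 5. Replicate 1 alone listed 21 peaks there, so many of its peaks were not found in replicate 2, and the shorter lists held 4.

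Adra1a followed with 6, all inside the gene, of which the shorter lists held 3. The highest of these, in an intron at chr14:66652001-66652340, had 0.884 and 0.970, and the lowest, at chr14:66720461-66720680, had 0.580 and 0.587. These were low peaks in a narrow range, and only in replicate 1 was one of them above the promoter peak of the gene.

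Adra2c had 5 peaks in or near a gene of 3.44 kb, where genes of like length have a median of 0. Of these, 3 lie side by side over its exon, at chr5:35279341-35279560 with 1.11 and 1.34, chr5:35279801-35280240 with 0.905 and 1.27, and chr5:35280261-35280840 with 1.04 and 1.68. The accessible stretch of Adra2c therefore covers much of the gene and not the promoter alone. Another peak lies upstream at chr5:35275261-35275540 with 0.714 and 0.514, and one downstream at chr5:35286121-35286580 with 0.841 and 1.13.

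Htr4 also had 5, the highest in an intron at chr18:62454241-62454620 with 1.03 and 1.23, which is above its promoter peak in both replicates. The other 4 ran down to 0.410 and 0.293 at chr18:62400115-62400320. Htr1f had 4, of which an intronic peak at chr16:65029781-65029980 had 1.01 and 0.628 and the rest lay between 0.325 and 0.522. The shorter lists held 1 shared peak at each of these genes.

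By mean, the highest peak outside promoters was in Chrna1, the muscle alpha subunit, whose promoter had none. It lies in an intron at chr2:73572541-73572900, centred 7.62 kb into the gene, and had 2.70 and 2.71 (2.71 ± 0.00962, SD, n = 2). It was the highest in replicate 1, above every receptor promoter too. In replicate 2 the peaks of Htr2a (2.79) and Chrm4 (2.76) and the promoter peak of Adra2b (2.80) were higher, and the promoter peak of Adra2a stood at 2.71. The other 3 peaks of Chrna1 were an intronic one at chr2:73567095-73567241 with 1.07 and 0.905 and upstream ones at chr2:73584661-73584860 with 1.39 and 1.66 and chr2:73586581-73586800 with 0.834 and 1.05.

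The muscle delta subunit Chrnd also had no promoter peak. It had none inside the gene either, but a pair of high peaks upstream. They had 1.73 and 1.77 at chr1:87184921-87185100 and 1.51 and 2.08 at chr1:87187101-87187320. Both lie inside the neighbouring gene Prss56, so they cannot be given to Chrnd by position alone. Chrna9 had 4 peaks inside the gene, among them the intronic one printed above, with 1.86 and 1.57, and an exonic one at chr5:65938121-65938320 with 1.48 and 1.86. The remaining pair had 0.573 and 0.848 at chr5:65955241-65955680, and 0.636 and 0.775 at chr5:65958711-65958880. Of the genes of the Chrna3 cluster, Chrnb4 had intronic peaks at chr9:55040101-55040360 with 0.516 and 0.677 and at chr9:55041343-55041760 with 0.714 and 0.603. Its remaining peak, at chr9:55024001-55024220 with 1.32 and 1.59, lies over an exon of Chrna3 and is higher than the promoter peak of Chrna3 in both replicates.

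Htr6, a CpG-rich gene without a promoter peak, had 4 peaks in or around it, of which 1 lies inside the gene and none is in the shorter lists. They had 1.47 and 1.64 at chr4:139054661-139054880 downstream, inside the gene Tmco4, 1.10 and 1.02 at chr4:139068442-139068600 in an intron, and upstream 1.12 and 1.48 at chr4:139081490-139081780 and 1.12 and 1.04 at chr4:139083170-139083340, the last inside the gene Nbl1. Drd3, also without a promoter peak, had intronic peaks of 1.49 and 1.54 and of 1.42 and 1.22.

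Htr2a had a low promoter peak and a high one inside the gene. Its intronic peak at chr14:74643441-74643620, centred 2.69 kb from the start site, had 1.94 and 2.79 (2.36 ± 0.602, SD, n = 2), against 0.403 and 0.685 at the promoter. A further intronic peak at chr14:74659581-74659640 had 0.417 and 0.375. Adra1b had its highest peak downstream of the gene, with 1.47 and 2.10 at chr11:43766961-43767300, and an intronic one of 1.12 and 1.25 at chr11:43783881-43784040. Its last pair, at chr11:43807761-43808131 and chr11:43775975-43776180, had 0.467 and 0.448, and 0.339 and 0.326.

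Upstream peaks were high at Chrm4 and Chrm1. Chrm4 had 2.11 and 2.76 at chr2:91921901-91922200, and 1.65 and 1.76 at chr2:91924121-91924300, both above its promoter peak in each replicate. Chrm1 had 1.84 and 2.43 at chr19:8662401-8662640 and 1.38 and 1.80 at chr19:8661941-8662360, next to its promoter window, and 1.44 and 1.11 at chr19:8682921-8683340 over an exon.

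Downstream of Htr1b a peak at chr9:81627021-81627200 had 1.82 and 1.83, more than its promoter peak in either replicate, while its upstream peaks at chr9:81635281-81635440 and chr9:81635495-81635697 had 0.389 and 0.375, and 0.410 and 0.375. Those upstream peaks overlap 1 peak of replicate 2. Downstream of Htr3a a peak at chr9:48894181-48894360 had 1.52 and 2.02, again above its promoter, and one at chr9:48896161-48896380 had 0.361 and 0.481. Of the 23 receptors with a peak of both kinds, 10 had their highest peak outside the promoter above the promoter peak in both replicates: Adra1b, Adrb3, Chrm4, Chrna3, Chrna4, Chrne, Htr1b, Htr2a, Htr3a and Htr4. In 7 the promoter peak was higher in both replicates, and in the other 6 the order turned. The same count was not made over all genes, so 10 of 23 cannot be called particular to receptors. The higher peak of Chrne lies inside the gene Mink1, so it cannot be given to Chrne by position alone.

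**Figure D4:**
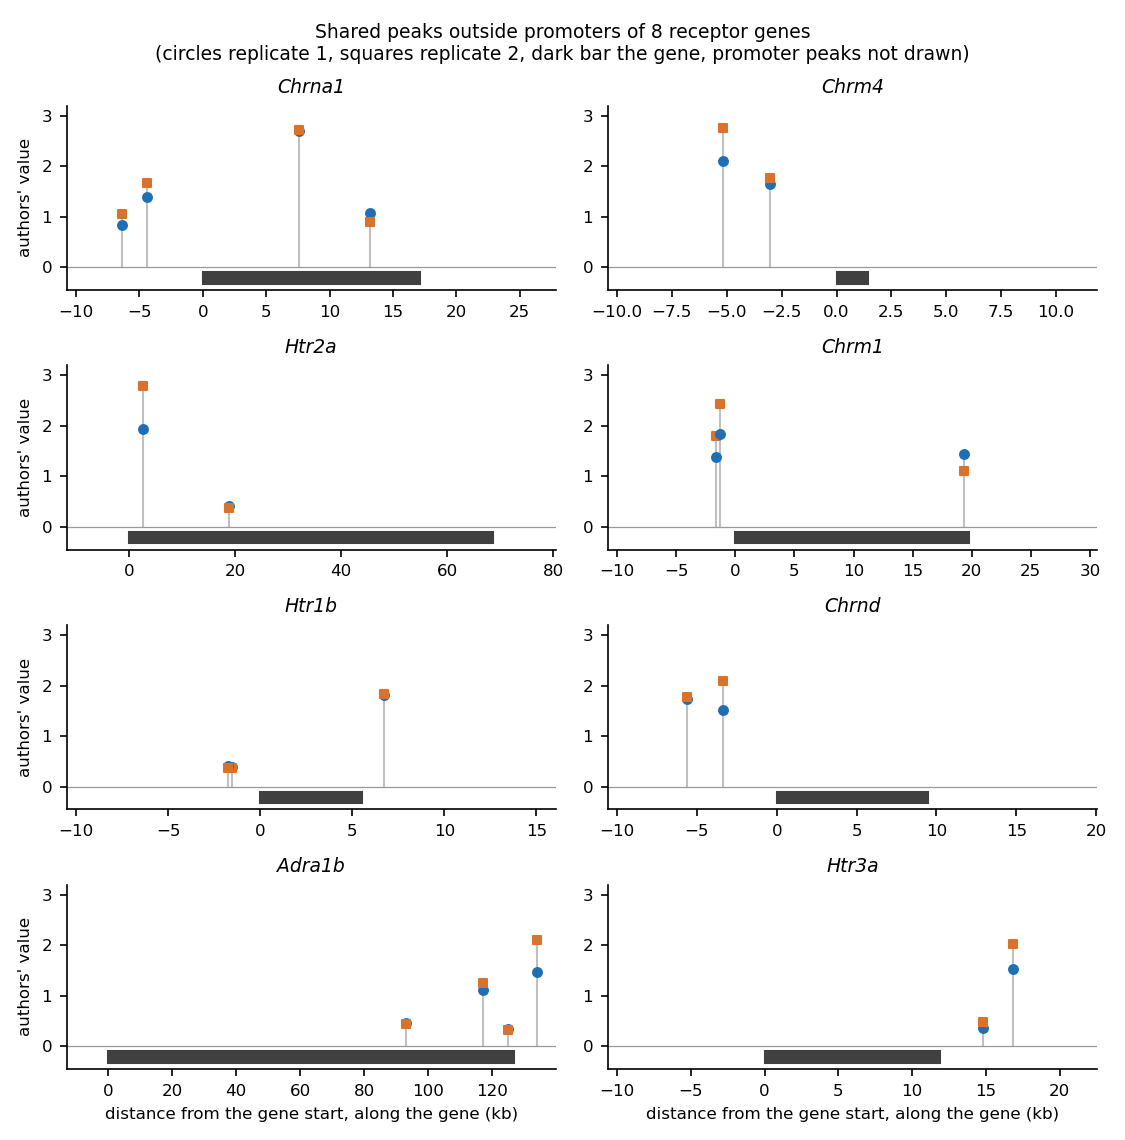
Shared peaks outside promoters of the 8 receptor genes with the highest such peak: authors' value (vertical axis) in replicate 1 (circles) and replicate 2 (squares) against distance from the gene start along the gene in kb (horizontal axis, own scale per gene), the dark bar being the gene. The intronic peak of Chrna1 stands at 2.70 and 2.71, and the highest peaks of Chrm4, Chrm1, Chrnd, Htr1b, Adra1b and Htr3a lie beyond the ends of their genes.

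Footprints were fewer in the promoter peaks of receptors than in all promoter peaks, as were the heights. Over 62 shared promoter peaks of receptors the mean number was 2.47 in replicate 1 and 3.76 in replicate 2, against 3.84 and 4.39 over all 24386. Each shared peak is a peak of replicate 1 paired with the highest overlapping peak of replicate 2. A peak of replicate 2 can thus count more than once, as at Htr7 and Htr1a, so its footprints and values are not from separate peaks throughout. The median values of the promoter peaks were 0.682 and 0.893 for receptors against 1.34 and 1.72, and the part of height in the footprint count was not tested. Outside promoters the 89 receptor peaks had means of 2.21 and 1.84, near the 2.38 and 2.16 of all 50710, at like median heights of 0.714 and 0.815 against 0.700 and 0.742. At least 1 footprint in each replicate was found in 44 of the 62 and 63 of the 89 peaks, or 71% and 70.8%, against 80.6% and 73.5% of all peaks of each kind.

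For motifs, fixed letters were searched on both strands in the 200 bp around the centre of each shared peak. A match is a description and not a bound site. The letters AGGGGGC, part of the CTCF core, were in 14 of the 89 receptor peaks outside promoters, or 15.7%, against 7.65% of all such peaks. They were in 6 of 62 at promoters, or 9.68%, against 11.3%. The wider form AGNGGGC, chosen after the values were seen and containing the first, was in 27 of 89, or 30.3%, against 21.4%, and in 14 of 62 at promoters, or 22.6%, against 26.9%.

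The 14 peaks with the narrow letters ran from 0.628 to 2.36 in mean value. Their median was 1.45, against 0.669 over the other 75 receptor peaks, beside 1.06 and 0.705 over all peaks outside promoters with and without them. They include 6 of the 10 highest receptor peaks outside promoters and 8 of the 20 highest: those of Htr2a, Chrm1, Htr1b, Adra1b, Chrnd (both), Chrne and the peak shared by Chrna3 and Chrnb4. The others of the 14 were peaks of Adrb3, Chrm3 and Htr1d, the intronic peak of Adra1b, and peaks of Chrna4 and Htr3b, where the letters lie in the 200 bp window but outside the called peak. The highest peak of Chrna1 held only the wider letters, and that of Chrm4 neither form.

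The RE1 parts, TTCAGCACC and GGACAG within 12 bp of each other, were in 2 of 62 promoter peaks, 3.23% against 0.135% of all promoter peaks, and in 0 of 89 outside promoters, where all peaks had 0.0552%. With 2 matches, in Chrnb2 and Htr1a, the share rests on those genes. The cyclic AMP response element TGACGTCA was in 0 receptor promoter peaks (1.88% of all) and in 2 outside, in Chrna9, within the sequence printed above, and in Htr4, where they lie outside the called peak (2.25% against 0.343%). Searched in whole peaks they were in 1, or 1.12% against 0.459%.

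The other letters are given with their shares in all peaks. At promoters the SP and KLF box GGGCGG was in 21 of 62, or 33.9%, against 44.5%, and the CCAAT box in 17, or 27.4%, against 23.6%. The neuronal E-boxes CAGCTG and CATCTG were in 7 and 4 promoter peaks, 11.3% and 6.45% against 13.2% and 9.32%, and outside promoters in 13 and 21 of 89, 14.6% and 23.6% against 20.7% and 25.8%. The AP-1 letters TGANTCA were in 1 promoter peak, 1.61% against 3.03%, and in 3 others, 3.37% against 7.13%. MEF2 was in 3 peaks outside promoters, 3.37% against 1.05%, and in 0 at promoters. NFI was in 0 of both kinds.

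**Figure D5:**
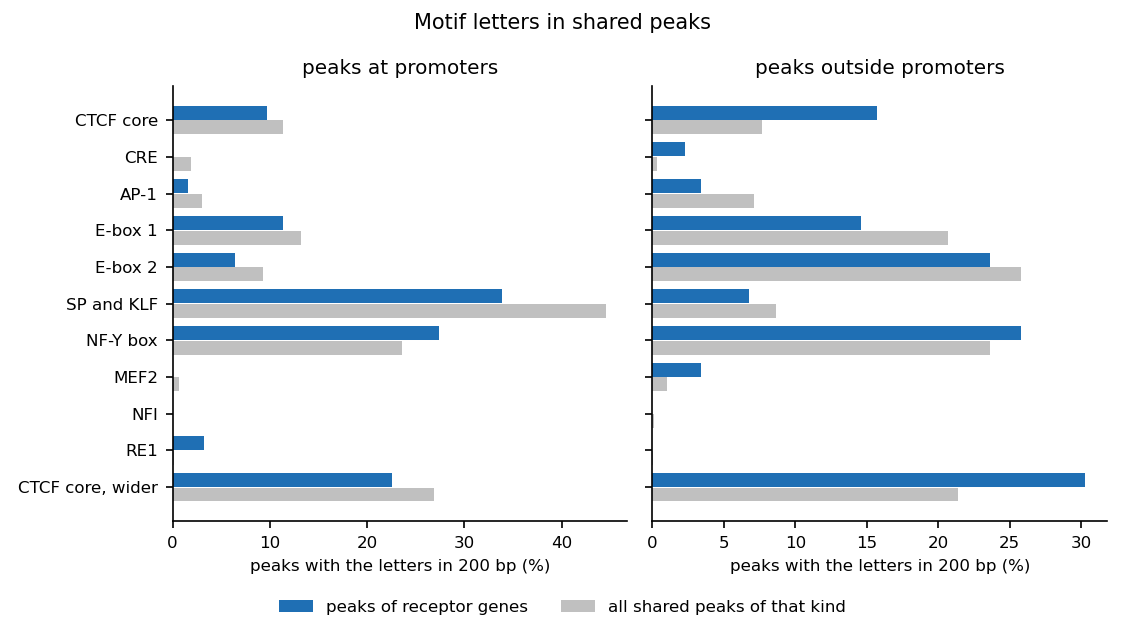
Share of shared peaks (horizontal axis, percent) with each set of motif letters in the central 200 bp, at promoters (left) and outside them (right), for peaks of receptor genes (blue) and all shared peaks of the kind (grey). Outside promoters the CTCF core stands at 15.7% against 7.65%, with E-box 1 being CAGCTG, E-box 2 CATCTG and the NF-Y box CCAAT, and with a scale of its own in each panel.

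Other genes of these pathways were read from fixed lists. All 22 signalling partners of the receptors, G protein alpha subunits, adenylyl cyclases, phospholipases C, arrestins, receptor kinases, Rgs4 and Ppp1r1b, had promoter peaks in both replicates. The share was 64.4% over all genes and 97.2% over those with a CpG ratio of 0.75 or more. The median ratio of the 22 partners was 0.771. Their median promoter value was 2.24, above the 1.02 of the receptors and below the 2.86 of all genes. Gna11, a Gq-family subunit, had 5.90 and 7.45, and Adcy1, a calcium-stimulated adenylyl cyclase, had 0.742 and 1.52.

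Genes for synthesis, transport and breakdown of the transmitters had promoter peaks in both replicates in 12 of 20, or 60%, near the 64.4% of all genes. The highest was the vesicular transporter Slc18a1, with 5.10 and 6.16, in a window that also holds the start of Atp6v1b2. Th, which makes the precursor of the catecholamines, Chat, which makes acetylcholine, and the transporters Slc18a3 and Slc6a2 had none in either, like Pnmt. The degrading enzymes Ache, with 2.80 and 3.03, and Maoa, with 2.45 and 2.70, were higher than every receptor gene by mean. Tph2, which makes serotonin in raphe neurons, had 1.17 and 1.32, and Dbh, which makes noradrenaline, had 1.48 and 1.60, so genes of the projecting neurons were not uniformly without promoter peaks. Of 6 genes that mark monoaminergic and cholinergic cell bodies, 3 had one in both replicates. Nicotinic assembly factors and modulators had 5 of 6, led by the chaperone Ric3 with 2.35 and 3.60. Of 5 other amine receptors, 3 had one, the histamine receptors Hrh1, Hrh2 and Hrh3, with Hrh3 at 0.834 and 1.43.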

How the data were processed

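DNase-seq peaks, footprints and cut-rate stretches were deposited by the authors per replicate, on mm10 per the labels. The aligner is not given in the sources used here, nor is the tool that called peaks. The signal per peak was deposited without a unit. The p-value columns, as deposited, are false discovery rates: at most 0.05 for cut-rate stretches and 0.01 for every footprint. The longer peak list of each replicate was used. Genes came from GENCODE M21, where transcripts of 1 symbol were merged to 21911 genes, and sequence from GRCm38.p6. No count model or test was run, since there is 1 group of 2 replicates. Every receptor gene was named under its promoter state, except 1 that is counted but not reported here. Outside promoters the 12 with most shared peaks and the 8 with the highest peak were named, and others named beside them were chosen after their values were seen. Annotated untranslated bases were left out of printed sequences, apart from a 30-base stretch of Chrnb2. Receptor genes, lists, motifs and alternatives were chosen with earlier results of these data known. Peak placement was checked on simulated peaks. Analyses used Python 3.11.15, pandas 2.3.3, numpy 2.4.6, scipy 1.17.1 and pysam 0.24.0.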

Additional observations from a re-analysis of the deposited data

How the results depend on the processing

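The counts depend on how strict the peak list is. With the shorter lists the median promoter value over receptors that kept a peak was 1.41, and promoter peaks were found in 7 serotonin, 1 dopamine and 3 nicotinic receptors, 7 Gi-coupled receptors and 4 channel subunits. Peaks outside promoters fell to 38, with a median of 0 per gene, as over all genes. At least 1 was found at 21 receptors, or 42.9%, against 40.1% of all genes. With only the peaks above the median value of each list the promoter median was 1.51, with 6 serotonin, 1 dopamine and 4 nicotinic receptors, 5 Gq-coupled receptors and 5 channel subunits, and 45 peaks outside promoters, with a median of 0 per gene. Fewer peaks enter both settings by construction. Using 1 replicate alone gave 33 to 35 receptors with a promoter peak, 2 to 4 dopamine receptors and 119 to 154 peaks outside promoters. The gene body alone held 55 peaks, with a median of 0, and 50000 bp either side held 196, with a median of 4. The median per gene was 1 when peaks had to share 50% and, an alternative chosen after seeing the data, when overlapping peaks were merged, the total then being 84 and 89. The count of receptors with a promoter peak stayed between 32 and 33 with promoters of 500 or 2500 bp, coding start sites only, overlapping peaks of the replicates, or peak midpoints, the last chosen after seeing the data.

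In motif searches the wider CTCF letters matched 14 promoter peaks and 27 others. In whole peaks AP-1 matched 2 and 6, CRE 1 outside promoters, CAGCTG 11 and CATCTG 7 at promoters. Of 133 comparisons of a main value with an alternative, 102 stayed within the limits set. Among named genes, the promoter value of Chrna3 was 1.46 with 2500 bp and that of Htr1a 0.986 with 500 bp, the 2 of 241 that moved. The limit for a promoter value was its SD over the 2 replicates. Using 1 replicate alone cannot move a value beyond that SD. The result of those comparisons was fixed in advance, so 2 of 241 does not measure how stable the values are. Of 128 peak counts outside promoters 39 moved, among them Chrm3 from 9 to 4, and Htr6 from 4 to 0 with the shorter lists, and Htr1f from 4 to 0 above the median value. No paired analysis was possible because there is 1 group. Depth is unknown, so absence of a peak is absence from the list only.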
